A study of Mus musculus with 6 samples.

Results

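The transcripts described are those of 10 genes that carry long-chain fatty acids into mitochondria and shorten them there by beta-oxidation. They were taken by gene name from a table of 41838 genes measured by RNA sequencing in 6 mouse livers, and all 10 were found, each in 1 row. The tissue is whole liver from mice of 9 weeks, according to the series text. The 3 Alkbh5-HKO livers (also labelled Alkbh5-CKO) come from mice in which Alkbh5 was targeted, and the 3 Alkbh5-flox livers from Alkbh5flox/flox mice, all on normal chow. ALKBH5 removes the methyl group from N6-methyladenosine (m6A) in RNA. The labels leave HKO and CKO unexplained, and they state neither the promoter that drives the recombinase, nor the deleted part of the gene, nor the feeding state at collection.

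Long-chain fatty acids cross the inner mitochondrial membrane only as carnitine esters. CPT1A forms the ester at the outer membrane, the carrier SLC25A20 exchanges it for free carnitine, and CPT2 turns it back into an acyl-CoA inside. In the matrix an acyl-CoA dehydrogenase, a hydratase, a hydroxyacyl-CoA dehydrogenase and a thiolase then remove acetyl-CoA in repeated rounds, with different enzymes for very long, long, medium and short chains. In liver the pathway feeds ketone body production, and many of its genes are known targets of the nuclear receptor PPAR-alpha, which is active in fasting.

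Alkbh5, read as a check of the labels, was at 0.508, 0.443 and 0.476 FPKM in the HKO libraries, against 17.8, 16.8 and 14.8 FPKM in the flox libraries (FPKM are fragments scaled to gene length and library size). Its mean FPKM in HKO was 2.89% of the flox mean. On log2 of FPKM + 1, where the added 1 understates the change of low genes, the change was -3.56 (SE 0.12, limma with Benjamini-Hochberg (BH) adjustment, adjusted p = 8.14e-05). Depth, recovered from the FPKM, was 14907384 to 17034754 reads per library. On a principal component with 44.0% of the variance, HKO library 1 was the most distant of the 6 (-38.6, against -15.7 and -4.51 in HKO libraries 2 and 3 and 13.7 to 22.7 in flox). On the second component, with 24.2%, flox library 3 (-16.7) lay beside HKO libraries 2 and 3 (-20.9 and -10.1). Hepatocyte markers summed to 53458 to 57339 FPKM in HKO and 48952 to 59152 FPKM in flox, a sum that Alb dominates, and of the 9 tested 7 were lower and 2 higher in HKO, with 0 passing and a median log2 of -0.20. Y-linked genes were present and Xist near 0 in all 6 libraries. Erythroid markers, of which 5 of 6 tested were lower in HKO and 1 passed, summed to 168 to 263 FPKM in HKO and 408 to 721 FPKM in flox. Those of cholangiocytes summed to 20.7 to 23.3 FPKM in HKO and 26.2 to 36.4 FPKM in flox, and those of T and NK cells to 3.85 to 6.11 FPKM in HKO and 1.37 to 2.295 FPKM in flox. Kupffer cell, sinusoidal endothelial and stellate cell markers had medians of -0.03, 0.07 and 0.13 on the log2 scale. Markers of skeletal muscle (0.428 to 0.641 in HKO and 0.283 to 0.774 in flox) and adipocytes (0 to 0.0541 in HKO and 0 to 1.30 in flox) were near 0, with Ckm, Myh1, Lep, Ucp1 and Retn at 0 in every library. In whole liver, fewer cells of a type and less RNA per cell cannot be told apart. The part that these differences in markers play in the values below was not tested.

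None of the 10 genes passed the test across all genes. The carnitine shuttle genes Cpt1a, Slc25a20 and Cpt2 had HKO means of 61.7%, 55.2% and 66.6% of the flox means. The dehydrogenase for the longest chains, Acadvl, was at 51.1% but varied widely within both groups. Acadm and Hadha were at 84.8% and 82.6%, and Acadl, Acads, Hadhb and Acaa2 lay between 96.3% and 111%. Of the 10453 genes with a mean of at least 1 FPKM, 0.488% passed the test at an adjusted p below 0.05 (limma on log2 of FPKM + 1, BH adjustment), 0.268% as higher and 0.22% as lower in HKO, against 0 of the 10. Without regard to the test, 7 of the 10 had a lower and 3 a higher mean log2 value in HKO, where the shares over all tested genes were 52.0% and 48.0%. At an unadjusted p below 0.05, 3 of the 10 were lower in HKO and 0 higher, where 8.44% of tested genes were lower and 8.57% higher. In 3 of the 10, Slc25a20, Cpt2 and Acadm, the HKO and flox ranges did not overlap and HKO was the lower, which held for 12.6% of all tested genes. The median log2 fold change of the 10 was -0.26, against -0.20 for the hepatocyte markers and -0.02 for all tested genes.

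**Figure D1:**
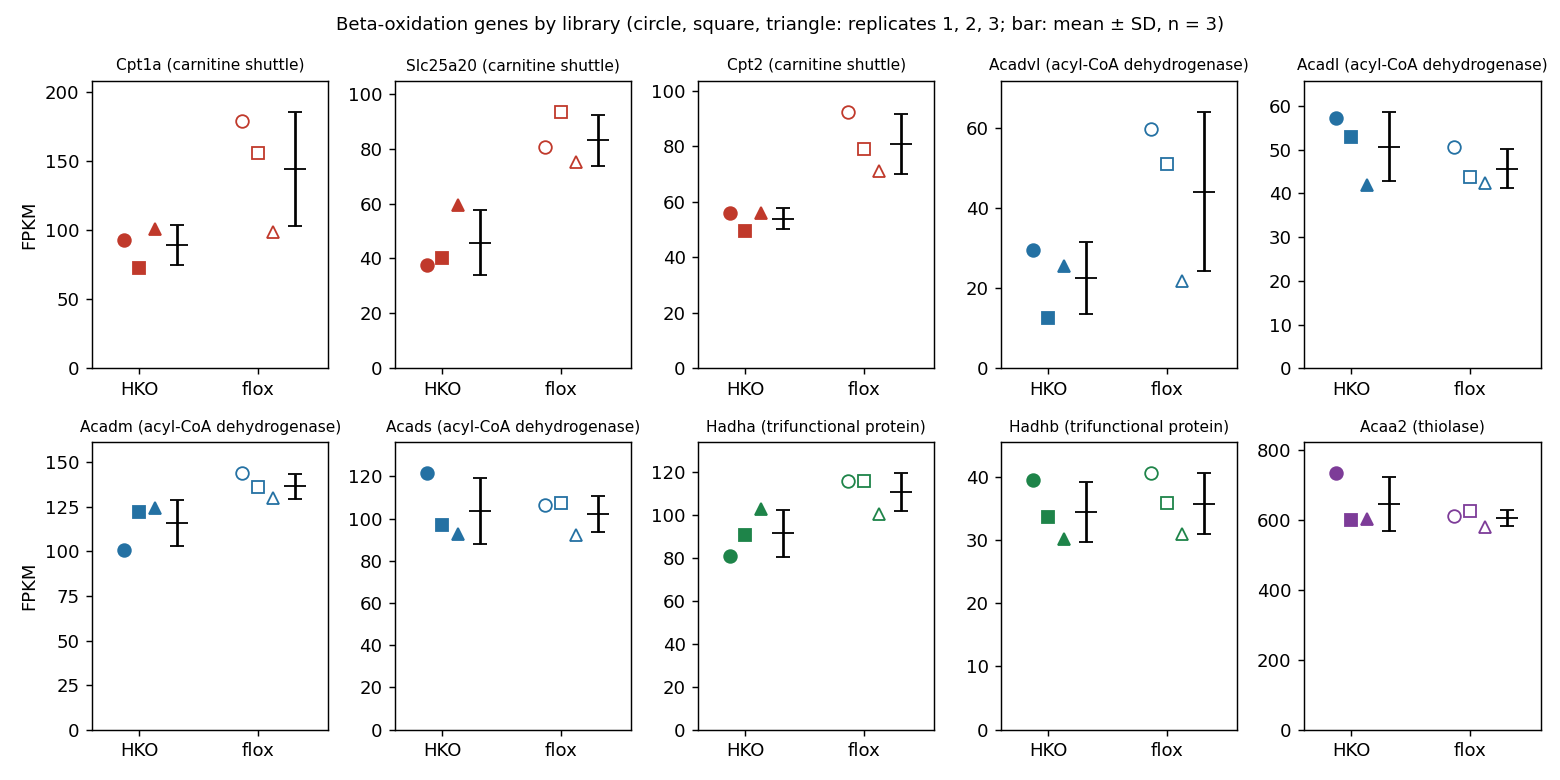
FPKM of the 10 genes in pathway order, each panel with its own axis from 0, with HKO (filled) left of flox (open). Symbols mark replicates 1, 2 and 3 and bars the mean ± SD (n = 3). The groups do not overlap for Slc25a20, Cpt2 and Acadm, and flox replicate 3 lies within the HKO range for Cpt1a and Acadvl.

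**Figure D2:**
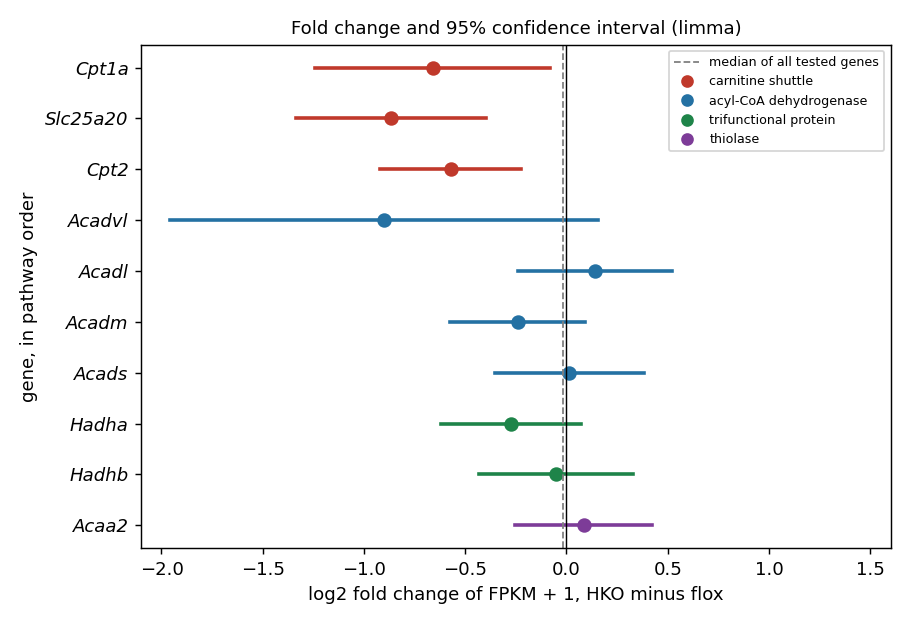
Log2 fold change of FPKM + 1, HKO minus flox, for the 10 genes from top to bottom in pathway order, with 95% confidence intervals from limma. The intervals of Cpt1a, Slc25a20 and Cpt2 lie below 0 before adjustment for the number of genes tested, and those of the other 7 genes include 0.

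The shuttle begins with Cpt1a, the liver form of the enzyme that commits fatty acids to oxidation and that malonyl-CoA inhibits. Cpt1a (gene 12894, chromosome 19, 3322325 to 3385735, plus strand, GRCm38.p6) was at 93.3, 73.0 and 101 FPKM in HKO libraries 1 to 3, against 179, 156 and 98.8 FPKM in flox libraries 1 to 3. Flox library 3 was the low one of its group and lay between HKO libraries 1 and 3, so the groups overlapped. On the log2 scale the difference was -0.66 (SE 0.25, 95% interval -1.24 to -0.08, limma with BH adjustment, adjusted p = 0.238). An lncRNA on the opposite strand, Gm36532, shares 4655 bases with the Cpt1a gene span and averaged 1.118 FPKM in HKO and 1.693 FPKM in flox. The muscle form of the enzyme, Cpt1b, was near 0 in every library (0 to 0.0754 FPKM in HKO and 0.150 to 0.211 FPKM in flox).

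Slc25a20 encodes the carnitine-acylcarnitine carrier of the inner membrane. It lies on chromosome 9 (gene 57279, 108662098 to 108684641, plus strand). It was at 37.8, 40.1 and 59.5 FPKM in HKO libraries, against 80.5, 93.4 and 75.1 FPKM in flox libraries. The highest HKO value, in library 3, was still under the lowest flox value. Its log2 fold change of -0.87 (SE 0.20, 95% interval -1.34 to -0.40) gave the smallest adjusted p of the 10 genes, 0.0997 by limma with BH adjustment.

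Cpt2, which restores the acyl-CoA on the matrix side, lies on chromosome 4 (gene 12896, 107903982 to 107923589, minus strand). It was at 56.1, 49.5 and 55.9 FPKM in HKO libraries, against 92.4, 79.1 and 71.0 FPKM in flox libraries. The 3 HKO libraries lay close together and all below flox. This gave a log2 fold change of -0.57 (SE 0.15, 95% interval -0.92 to -0.22, limma with BH adjustment, adjusted p = 0.128). Summed over the 3 shuttle genes, HKO libraries held 187, 163 and 217 FPKM and flox libraries 352, 329 and 245 FPKM.

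The sequence before the start of each shuttle gene, and of Acadvl, is shown because these were the 4 genes with the lowest HKO share of the flox level. Each is the 250 bases upstream of the RefSeq start (GRCm38.p6), written 5′ to 3′ on the gene's strand. For Cpt1a and Slc25a20 that start lies inside the gene span given in the deposited table, which begins further upstream. All of the Cpt1a stretch and the end of the Slc25a20 stretch thus lie within that span. They are Cpt1a at chr19:3323051-3323300 (plus), Slc25a20 at chr9:108661886-108662135 (plus), Cpt2 at chr4:107923590-107923839 (minus) and Acadvl at chr11:70015429-70015678 (minus). Capitals mark AGGTCA on either strand, the half-site that PPAR-alpha and other nuclear receptors bind.
Cpt1a: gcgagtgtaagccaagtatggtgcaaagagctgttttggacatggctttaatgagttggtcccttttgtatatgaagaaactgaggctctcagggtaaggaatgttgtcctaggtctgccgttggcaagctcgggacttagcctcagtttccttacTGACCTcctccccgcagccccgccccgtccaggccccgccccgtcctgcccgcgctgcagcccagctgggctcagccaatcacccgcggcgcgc
Slc25a20: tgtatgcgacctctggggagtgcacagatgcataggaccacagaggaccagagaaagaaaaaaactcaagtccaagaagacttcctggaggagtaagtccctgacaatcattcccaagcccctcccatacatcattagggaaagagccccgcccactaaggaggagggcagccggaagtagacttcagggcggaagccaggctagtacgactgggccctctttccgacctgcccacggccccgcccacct
Cpt2: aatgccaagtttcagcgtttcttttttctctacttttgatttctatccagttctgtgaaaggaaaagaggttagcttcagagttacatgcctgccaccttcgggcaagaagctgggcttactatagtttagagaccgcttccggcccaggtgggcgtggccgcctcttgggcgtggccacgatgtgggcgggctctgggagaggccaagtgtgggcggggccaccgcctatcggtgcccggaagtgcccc
Acadvl: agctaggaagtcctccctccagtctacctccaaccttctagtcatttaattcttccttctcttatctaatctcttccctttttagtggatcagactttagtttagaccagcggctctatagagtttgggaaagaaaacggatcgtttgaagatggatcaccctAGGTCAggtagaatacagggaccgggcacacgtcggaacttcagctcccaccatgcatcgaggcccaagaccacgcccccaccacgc

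A window of 300 bases, from 250 before to 50 after the start, was found for 9 of the 10 genes, all but Acaa2. AGGTCA stood in 3 of the 9 windows, those of Cpt1a, Acadvl and Acadm, and in 16.3% of the 32851 windows of the whole table. A direct repeat of AGGTCA with 1 base between the copies (DR1, the layout PPAR-alpha prefers with its partner RXR), with up to 2 mismatches on either strand, stood in 1 of 9, that of Slc25a20, and in 3.86% of all windows. That match begins 7 bases after the start, outside the stretch printed above. TCAAGGTCA, the form bound by estrogen-related receptors and containing AGGTCA, and TGACGTCA, the cAMP response element, stood in 0 of 9, against 0.423% and 1.79% of all windows. These are matches of letters, not measured binding sites. The windows of the 9 genes held 50.7% to 70.3% G and C, against a median of 52.7% over the table.

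The first step of each round is run by 4 acyl-CoA dehydrogenases that differ in the chain length they take. Acadvl, for very long chains, lies on chromosome 11 (gene 11370, 70010183 to 70015428, minus strand). It was at 29.6, 12.6 and 25.4 FPKM in HKO libraries, against 59.7, 51.0 and 21.7 FPKM in flox libraries. Flox library 3 lay below HKO libraries 1 and 3, and HKO library 2 was the lowest of the 6. Its log2 fold change of -0.90 had an SE of 0.45 (95% interval -1.96 to 0.16, limma with BH adjustment, adjusted p = 0.358). Without flox library 3 it was -1.34 and without HKO library 2 it was -0.55.

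Acadl, for long chains, was at 57.3, 53.0 and 41.9 FPKM in HKO libraries, against 50.7, 43.7 and 42.4 FPKM in flox libraries (gene 11363, chromosome 1, 66830839 to 66863309, minus strand). The groups overlapped, with HKO library 3 the lowest of the 6 and HKO library 1 the highest. Its log2 fold change was 0.14, with a 95% interval of -0.24 to 0.52. A same-strand pseudogene, Gm15793, shares 632 bases with Acadl and averaged 0.293 FPKM in HKO and 0.406 FPKM in flox.

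Acadm, for medium chains, was at 101, 122 and 125 FPKM in HKO libraries, against 144, 136 and 129.9 FPKM in flox libraries (gene 11364, chromosome 3, 153922353 to 153944643, minus strand). The ranges did not overlap, and the gap between HKO library 3 and flox library 3 was small. The difference was -0.24 on the log2 scale (SE 0.14, 95% interval -0.58 to 0.09, limma with BH adjustment, adjusted p = 0.427).

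Acads, for short chains, was at 121, 97.0 and 92.5 FPKM in HKO libraries, against 107, 108 and 92.3 FPKM in flox libraries (gene 11409, chromosome 5, 115110299 to 115119346, minus strand). The ranges overlapped, and HKO library 1 was again the highest of the 6. The log2 fold change of 0.01 had a 95% interval of -0.35 to 0.38, which does not show that the groups were alike but bounds their difference.

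The next steps for long chains lie on the mitochondrial trifunctional protein. Its alpha subunit, from Hadha, carries the hydratase and the hydroxyacyl-CoA dehydrogenase, and its beta subunit, from Hadhb, the thiolase. Hadha was at 80.9, 90.5 and 103 FPKM in HKO libraries, against 116, 116 and 100.4 FPKM in flox libraries (gene 97212, chromosome 5, 30118304 to 30154980, minus strand). HKO library 3 lay just above flox library 3, and the remaining HKO libraries lay below all flox libraries. The log2 fold change was -0.28 (SE 0.15, 95% interval -0.62 to 0.07, limma with BH adjustment, adjusted p = 0.386).

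Hadhb was at 39.5, 33.6 and 30.1 FPKM in HKO libraries, against 40.5, 35.8 and 30.9 FPKM in flox libraries (gene 231086, chromosome 5, 30155253 to 30184593, plus strand). The groups overlapped across nearly their whole range. Hadhb had a log2 fold change of -0.05, with a 95% interval of -0.43 to 0.33. Per length, Hadha exceeded Hadhb 2.05-, 2.69- and 3.41-fold in HKO libraries and 2.85-, 3.23- and 3.25-fold in flox libraries. The gene length divided by was 3835 bases for Hadha and 5381 for Hadhb, against longest GENCODE M21 coding transcripts of 4017 and 2048 bases. This excess therefore depends on the length used, and a difference in the number of transcripts was not tested.

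Hadha and Hadhb are transcribed away from each other, with 272 bases between their annotated starts. That stretch (chr5:30154981-30155252, plus strand of GRCm38.p6, RefSeq, read from Hadha to Hadhb) is the upstream sequence of both genes and is shown for that reason. It holds no AGGTCA and no DR1 within 2 mismatches, so it has no capitals.
Hadha-Hadhb: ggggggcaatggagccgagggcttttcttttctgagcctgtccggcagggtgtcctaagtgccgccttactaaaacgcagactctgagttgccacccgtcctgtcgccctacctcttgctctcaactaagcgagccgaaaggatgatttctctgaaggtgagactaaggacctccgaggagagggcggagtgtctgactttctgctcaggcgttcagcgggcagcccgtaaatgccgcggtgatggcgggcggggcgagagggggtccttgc

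Acaa2, the matrix thiolase that releases acetyl-CoA from medium chains, was the most abundant of the 10 in every library. It was at 734, 598 and 603 FPKM in HKO libraries, against 612, 626 and 579 FPKM in flox libraries (gene 52538, chromosome 18, 74779212 to 74806207, plus strand). HKO library 1 was the highest of the 6, and the remaining libraries of both groups lay close together. The log2 fold change was 0.08, with a 95% interval of -0.25 to 0.42.

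Ordered by FPKM, which is per gene length, the HKO means ran from Acaa2 (645) through Acadm (116), Acads (104), Hadha (91.4), Cpt1a (89.2), Cpt2 (53.8), Acadl (50.7), Slc25a20 (45.8) and Hadhb (34.4) to Acadvl (22.5). In HKO, neighbours in that order were separated beyond their ranges only between Acaa2 and Acadm, Cpt1a and Cpt2, and Hadhb and Acadvl. The flox means ran from Acaa2 (606) through Cpt1a (145), Acadm (137), Hadha (111), Acads (102), Slc25a20 (83.0), Cpt2 (80.8), Acadl (45.6) and Acadvl (44.1) to Hadhb (35.7). In flox, neighbours were separated only between Acaa2 and Cpt1a, Acadm and Hadha, and Cpt2 and Acadl. Cpt1a was thus the fifth in HKO and the second in flox, and Slc25a20 the eighth in HKO and the sixth in flox. Gene lengths were 4376, 3896 and 5381 bases for Acadvl, Acadl and Hadhb, against longest GENCODE M21 coding transcripts of 2168, 1916 and 2048. For the other members these lengths were closer. The places of Acadvl, Acadl and Hadhb in both orders, and of the genes around them, therefore depend on the length used.

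The 10 genes together took 0.314%, 0.287% and 0.292% of the recovered reads in HKO libraries and 0.360%, 0.331% and 0.314% in flox libraries. Their summed FPKM was 1350, 1170 and 1237 in HKO libraries, against 1482, 1444 and 1242 in flox libraries. The sum of the 7 matrix enzymes, which Acaa2 dominates, was 1163, 1007 and 1020 FPKM in HKO libraries and 1130, 1115 and 997 FPKM in flox libraries, and so overlapped. The mean log2 FPKM of the 3 shuttle genes minus that of the 7 matrix genes was -0.63, -0.53 and -0.22 in HKO libraries, against 0.08, 0.10 and 0.03 in flox libraries. All HKO libraries lay below all flox libraries in this difference, which is given as a description with no test. It was not among the planned comparisons. The separation restates the lower HKO values of the single shuttle genes given above and is no separate result. Each value of the 10 genes rested on 1009 to 17615 reads.

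**Figure D3:**
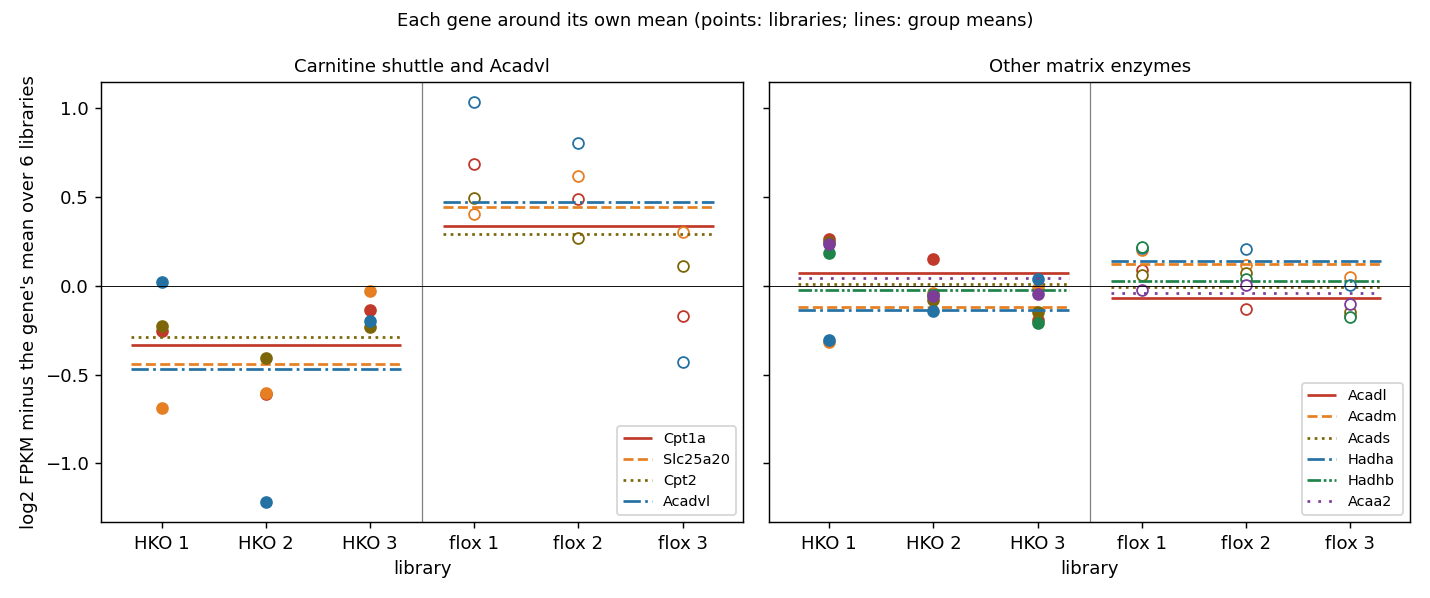
Log2 FPKM of each gene minus its own mean over the 6 libraries, HKO libraries (filled) left of flox libraries (open), with lines at group means. The shuttle genes and Acadvl (left panel) spread more widely than the remaining matrix enzymes (right panel). These 4 were put together as the genes with the lowest HKO share of the flox level, and the spread includes the group difference. Flox library 3 is the lowest flox library for all 4 genes on the left.

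Flox library 1 was the highest of the 6 for 6 of the 10 genes, and HKO library 1 the highest for 3. HKO library 1 and HKO library 2 were each the lowest for 3 genes, HKO library 3 and flox library 3 for 2 each. HKO library 1, the one that stood apart over all genes, was thus the highest for Acadl, Acads and Acaa2 and the lowest for Slc25a20, Acadm and Hadha. Without it the log2 fold changes of Cpt1a, Slc25a20 and Cpt2 were -0.70, -0.75 and -0.60, those of Acadm and Hadha -0.15 and -0.19, and those of Acadl, Acads and Acaa2 0.05, -0.10 and -0.01. Mitochondrially encoded genes took 5.67%, 4.68% and 4.35% of reads in HKO libraries and 3.66%, 4.22% and 4.38% in flox libraries, and their part in these values was not tested.

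The balance between steps was compared within libraries by 5 log2 ratios with an exact two-sided permutation test, for which the smallest p that 3 against 3 libraries allow is 0.1. None of the 5 was separated between groups. Acadvl over Acads averaged -2.28 ± 0.58 in HKO and -1.33 ± 0.66 in flox (log2, SD, n = 3, exact permutation p = 0.3, BH adjusted p = 0.5 over the 5 ratios). Acadl over Acadm averaged -1.20 ± 0.38 in HKO and -1.59 ± 0.07 in flox (exact permutation p = 0.2, BH adjusted p = 0.5). Hadha over Hadhb averaged 1.41 ± 0.37 in HKO and 1.63 ± 0.11 in flox, a difference of -0.22 (exact permutation p = 0.4, BH adjusted p = 0.5). Slc25a20 over Cpt2 differed by -0.30 (exact permutation p = 0.3, BH adjusted p = 0.5) and Cpt1a over Cpt2 by -0.09 (exact permutation p = 0.6, BH adjusted p = 0.6). With 1 library left out, the difference in Hadha over Hadhb ran from -0.40 (without HKO library 3) to -0.036 (without HKO library 1), and that in Acadl over Acadm from 0.20 (without HKO library 1) to 0.58 (without HKO library 3). Those of Slc25a20 over Cpt2 and Acadvl over Acads ran from -0.48 (without HKO library 3) to -0.15 (without HKO library 1) and from -1.32 (without flox library 3) to -0.61 (without HKO library 2).

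Among 26 further genes of mitochondrial beta-oxidation, chosen with earlier results of these data known, 25 were tested. Of these 17 were lower in HKO and 8 higher, 0 passed in either direction, and the median log2 fold change was -0.23. Without overlap between groups, 11 were lower and 5 higher, where the shares over all tested genes were 12.6% and 12.8%. The 5 higher ones were Acot13 (log2 0.61), Acsl5 (0.47), the hydratase Echs1 (0.40), Acad9 (0.38) and Acad10 (0.27). The genes described next were named for the largest changes, and all of them were lower. In 6 of 17 alternatives 1 gene of the list passed, namely with a mean of at least 5 FPKM, quantile scaling, TPM, recovered reads, voom, or without flox library 3. Acsl1, which activates long-chain fatty acids to acyl-CoA, was at 75.8, 67.5 and 104 FPKM in HKO libraries, against 324, 258 and 186 FPKM in flox libraries (log2 -1.61, limma with BH adjustment, adjusted p = 0.0525). Crat, which moves acetyl groups between CoA and carnitine, was at 2.08, 4.96 and 4.46 FPKM in HKO libraries, against 25.6, 12.5 and 15.3 FPKM in flox libraries (log2 -1.96, limma with BH adjustment, adjusted p = 0.0646). Slc22a5, the carnitine importer of the plasma membrane, was at 6.996, 5.55 and 10.3 FPKM in HKO libraries, against 35.7, 20.1 and 12.3 FPKM in flox libraries (log2 -1.37, limma with BH adjustment, adjusted p = 0.150).

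The groups did not overlap for these 3 genes, and flox library 3 was the nearest flox library to HKO for Acsl1 and Slc22a5. Eci2, an isomerase for unsaturated chains, averaged 97.95 ± 7.70 in HKO and 164 ± 18.6 FPKM in flox (log2 -0.73, limma with BH adjustment, adjusted p = 0.0785). Acot2, a mitochondrial thioesterase, averaged 1.34 ± 0.51 in HKO and 5.37 ± 3.79 FPKM in flox, and is uncertain because reads may be shared with its near-identical relative Acot1.

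Of 14 tested regulators of the pathway 12 were lower and 2 higher in HKO, 0 passed, and the median was -0.24. Ppara itself was at 38.8, 22.6 and 31.1 FPKM in HKO libraries, against 48.3, 48.2 and 25.9 FPKM in flox libraries, with overlap through flox library 3 (log2 -0.37, limma with BH adjustment, adjusted p = 0.544). Creb3l3, a fasting-induced transcription factor of hepatocytes, averaged 135 ± 24.6 in HKO and 242 ± 46.2 FPKM in flox (log2 -0.83), and the groups did not overlap. Lpin1, which acts with PPAR-alpha and its coactivator PGC-1-alpha, averaged 45.8 ± 21.9 in HKO and 106 ± 61.1 FPKM in flox, with overlap. Hnf4a, the hepatocyte nuclear receptor, had a log2 value of -0.55 and the estrogen-related receptor Esrra of -0.54, both without overlap.

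Known PPAR-alpha targets outside mitochondrial beta-oxidation had a median log2 fold change of -1.10, with 15 of 16 tested genes lower in HKO, 1 higher, and 2 passing as lower. The 2 that passed were the acyl-CoA thioesterase Acot1 (9.31 ± 3.87 in HKO and 64.5 ± 17.2 FPKM in flox, log2 -2.70, limma with BH adjustment, adjusted p = 0.0297) and the lipid droplet protein Plin5 (9.72 ± 3.73 in HKO and 41.8 ± 9.18 FPKM in flox, log2 -2.03, limma with BH adjustment, adjusted p = 0.0373). Acot1 carries the same limit as Acot2, since reads may be shared between them. The lipid droplet coat Plin2 averaged 112 ± 41.3 in HKO and 341 ± 140.0 FPKM in flox. Pdk4, a kinase that inhibits pyruvate oxidation, was at 0.525, 0.395 and 0.464 FPKM in HKO libraries, against 9.35, 1.23 and 2.07 FPKM in flox libraries. Without HKO library 1, HKO library 2, flox library 1 or flox library 2, or with no filter, 0 genes of the list passed. Fabp1, the liver fatty acid binding protein, had a log2 value of -1.57 and overlapped, with 563 FPKM in HKO library 1 against 2669 and 4322 FPKM in HKO libraries 2 and 3 and 4302 to 6319 FPKM in flox.

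**Figure D4:**
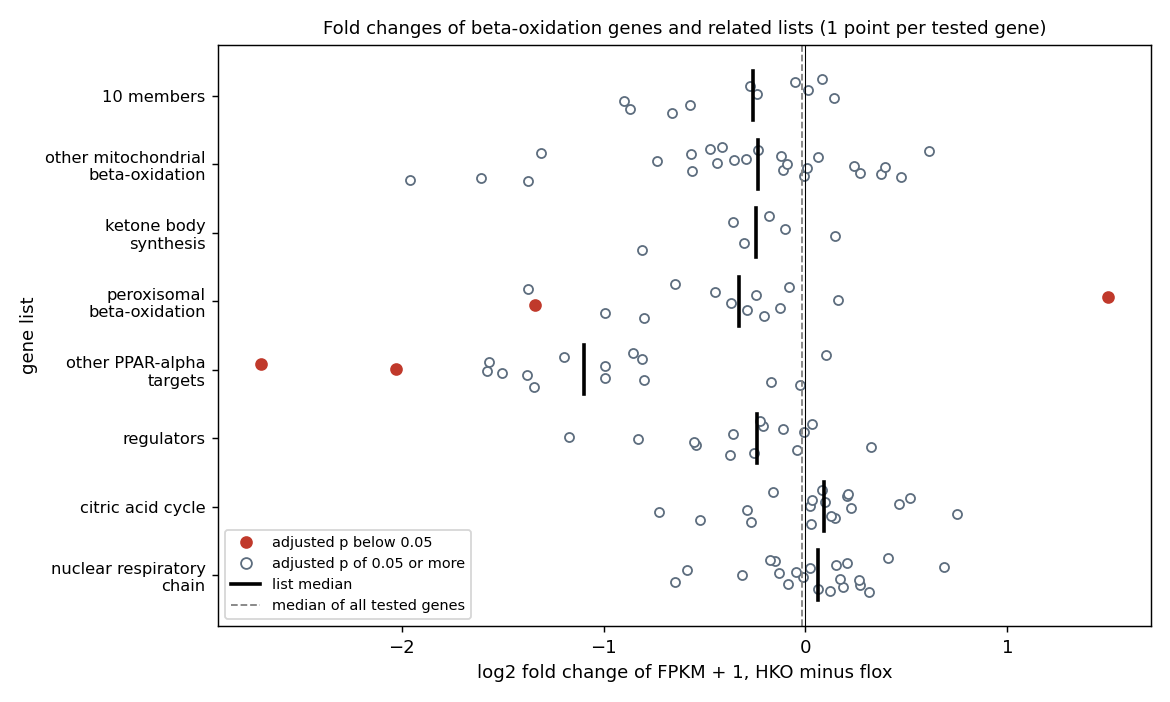
Log2 fold change of FPKM + 1, HKO minus flox, with 1 point per tested gene, for the 10 beta-oxidation genes and 7 related lists. Filled points passed at an adjusted p below 0.05, bars are list medians, and the dashed line is the median of all tested genes. The median of the 10 genes is -0.26, that of other PPAR-alpha targets -1.10 and that of the citric acid cycle 0.09.

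Peroxisomes shorten very long chains by a parallel set of enzymes. Of 14 tested genes, some of them also among the PPAR-alpha targets, 12 were lower and 2 higher in HKO, 1 passed in each direction, and the median log2 was -0.33. The thiolase Acaa1b fell to 203 ± 26.5 FPKM in HKO, against 523 ± 123 FPKM in flox (log2 -1.34, limma with BH adjustment, adjusted p = 0.0475), and has a near-identical relative, Acaa1a, with which reads may be shared. The fatty acid transporter Abcd2 rose to 6.53 ± 0.76 in HKO, against 1.73 ± 0.79 FPKM in flox (log2 1.499, limma with BH adjustment, adjusted p = 0.0424). The peroxisome division factor Pex11a (log2 -1.37) and the bifunctional enzyme Ehhadh (-0.995) did not overlap between groups and did not pass. No gene of this list passed without any 1 of the 3 HKO libraries or without flox library 1 or 2. The same held with a pseudocount of 0.1 or with no filter, and 1 gene passed without flox library 3.

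Ketone body synthesis uses the acetyl-CoA that beta-oxidation releases. Of 6 tested genes 5 were lower and 1 higher in HKO, 0 passed, and the median log2 was -0.24. The thiolase Acat1 (0.15) and the monocarboxylate transporters Slc16a1 (-0.36) and Slc16a6 (-0.18) overlapped between groups.

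Other mitochondrial genes were read beside these to show the level of the organelle's transcripts. In the citric acid cycle 5 of 18 tested genes were lower and 13 higher in HKO, 0 passed, and the median was 0.09. Idh2 (log2 0.75), Sdhb (0.52) and Suclg2 (0.46) were higher without overlap and Ogdh (-0.72) and Idh3a (-0.52) lower without overlap, none of which passed. In the nuclear respiratory chain list 9 of 21 were lower and 12 higher, 0 passed, and the median was 0.06. Some of its genes varied strongly within groups, such as Uqcrc1 (0.906 to 47.0 FPKM in HKO and 0.978 to 20.3 FPKM in flox) and Atp5a1 (2.47 to 52.6 FPKM in HKO and 2.22 to 38.9 FPKM in flox). Cox5b (-0.59) and Cycs (-0.32) overlapped between groups, and Vdac1 (0.41) was higher without overlap. With Vdac1, 8 of the 21 were higher and 0 lower without overlap, where the shares over all tested genes were 12.8% and 12.6%. Of the 13 mitochondrially encoded genes 3 were lower and 10 higher with 0 passing (median log2 0.23, or -0.03 without HKO library 1), and COX3, ATP6, ATP8, ND6 and COX2 were each highest in HKO library 1.

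Among tested genes outside the 10, those whose values over the 6 libraries came nearest to the mean profile of the 10 were Nomo1, Hsd17b4, Rabl6, Rapgef1 and Gigyf2. Likeness was the root mean square distance between log2 values of FPKM + 1 centred on each gene's mean, which was 0.03 to 0.05 over 6 libraries. Hsd17b4 is itself an enzyme of peroxisomal beta-oxidation and part of that list, and its log2 fold change was -0.29.

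The letters of GGACT, a common form of the m6A consensus, were counted in the longest GENCODE M21 coding transcript of each gene. Matches per kilobase were 2.24 for Slc25a20, 2.14 for Acads and 1.74 for Hadha, and 0.422 to 1.04 for the other genes. The median over 9176 tested coding genes was 1.04, with quartiles of 0.636 and 1.53. A match is not a measured methylated site.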

How the data were processed

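Liver RNA selected by poly(A) was sequenced in read pairs, per the labels' protocols, in 3 HKO and 3 flox libraries. Per the series text, HISAT2 2.0.5 aligned the reads to GRCm38.p6 and featureCounts 1.5.0-p3 counted them. CASAVA and DESeq2 1.20.0 also stand in the submitters' processing notes, which name no annotation, strand setting or rule for multi-mapping reads. The authors deposited FPKM, 1 column per library. FPKM times gene length came to whole multiples of 1 step (100% of values, tolerance 0.001), which gave the reads back, and the library size the authors divided by was 0.925 to 1.08 of their total.

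Genes with a mean of at least 1 FPKM, 10453 in all, were tested by limma 3.58.1 (trend and robust, with statmod 1.5.0, R 4.3.3) on log2(FPKM + 1), HKO minus flox, with BH adjustment at 0.05. The added 1 understates the change of low genes. The fit was first tested on simulated reads, drawn gene by gene from the real means and depths. Each gene's spread was moved toward the median of all genes, and no shift was shared by the genes of a library. Recovery in the real libraries may therefore differ from the counts that follow. At an adjusted p below 0.05 by limma with BH adjustment, it recovered 50 of 98 simulated 2-fold changes and 94 of 95 4-fold changes. Of 10150 unchanged genes it called 7. Not passing therefore does not show that a gene was unchanged. Ratios were tested with scipy 1.17.1 (Python 3.11.15) and figures drawn with matplotlib 3.10.9. Intervals are 95%. Named were the 10 genes, Alkbh5, up to 5 genes of each related list, those that passed first and then by size of change, and 5 of nearest profile. Cpt1b, Acaa1a, Acot13, Acsl5, Echs1, Acad9, Acad10, single marker genes and genes overlapping the 10 were named after their values were seen. The 10 genes and the lists were chosen with earlier results of these data known. The series text calls the 3 replicates of a group independent biological ones, and no library was a copy of another (chi-square per degree of freedom of 28.3 to 63.0 within groups). Protein sequences were not used here. Values of some single genes of the related lists are not reported here. The alternatives varied the pseudocount, the filter, the scaling, the moderation, the replicate block, voom on recovered reads, and which library was left out.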

Additional observations from a re-analysis of the deposited data

How the results depend on the processing

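Scaling to the total of recovered reads was added after seeing the data. Of the 10 beta-oxidation genes 0 passed in any of 17 alternatives, with a smallest adjusted p by limma with BH adjustment of 0.0752 (Slc25a20, HKO library 3 omitted). Of 170 log2 values of single members 162 kept their direction and 8 changed sign, and the cause was not tested. These were Hadhb, at 0.0033 with quantile scaling, 0.023 with TPM, 0.020 with recovered reads and -0.15 to 0.040 with 1 library omitted, Acads, at -0.10 to 0.090, and Acaa2, at -0.012 to 0.13. Omitting 1 library put Cpt1a at -0.91 to -0.49, Slc25a20 at -1.07 to -0.75, Cpt2 at -0.66 to -0.47, Cpt1a over Cpt2 at -0.25 to 0.0014 and the median of the 10 at -0.33 to -0.17. Over all genes, 28 passed as higher and 23 as lower in HKO. There were 18 higher with a pseudocount of 0.1, 0 higher and 1 lower with no filter, which tests more genes, and 0 to 29 higher and 1 to 38 lower with 1 library omitted. Other PPAR-alpha targets had a median of -0.80 with a pseudocount of 5, and the citric acid cycle one of 0.17 with TPM and 0.16 with recovered reads, where the median of all tested genes was 0.05. The cause of these changes was not tested. Deviations of equally numbered HKO and flox libraries correlated at 0.153, -0.145 and -0.0514 for replicates 1, 2 and 3. HKO library 1 correlated best with the flox library of its own number, and HKO libraries 2 and 3 did not. With 3 libraries per group this cannot show whether the numbers pair libraries. The replicate block gave 1 higher and 8 lower over all genes, 0 of the 10, and 0 of the PPAR-alpha and peroxisomal lists.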
